A study of Mus musculus with 12 samples.

Results

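Interferon-stimulated genes are genes whose transcription is switched on by interferons, secreted proteins that include the type I interferons released on sensing foreign nucleic acid. Their mRNA levels were examined in Lin−cKit+ (LK) bone marrow cells, the fraction that lacks the surface markers of mature blood lineages, carries the stem cell factor receptor cKit, and holds hematopoietic stem cells and the progenitors derived from them. A list of 44 genes was taken from the 55291 genes of the count matrix, spanning the transcription factors of the interferon pathway, the ISG15 system, RNA sensors, and antiviral effector families. Of these, 43 passed the filter on low counts that left 15825 genes for testing, and the 44th, Ifit3b, was too low to test.

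One library was made from each of 12 C57BL/6 mice at 12 months of age, 3 per genotype. WT mice are labelled as wild type. Kdm6bΔ/+ mice had lost 1 allele of Kdm6b, which encodes a demethylase of histone H3 lysine 27, and Asxl1Y588XTg mice carried a transgene encoding a truncated form of the chromatin regulator ASXL1. The labels give the double mutants, named Asxl1Y588XTg Kdm6bΔ/+ in the study, as Double mutation. Mx1Cre, a Cre recombinase placed under the promoter of the interferon-stimulated gene Mx1, deleted Kdm6b after 3 injections of pI:pC at 10 mg/kg. This synthetic RNA acts by making the animal produce interferon. The sources used here do not give the promoter of the Asxl1 transgene, the interval between injection and harvest, or whether these WT and Asxl1Y588XTg mice carried Mx1Cre or were injected, so exposure to pI:pC and the Kdm6b deletion cannot be told apart. The cells were enriched with beads.

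The libraries held 14451522 to 23482563 reads assigned to genes. Kdm6b mRNA, the targeted transcript, was at 1346 to 1909 normalized counts in the 6 libraries carrying the deletion and at 1869 to 2372 in the other 6, ranges that overlapped. A normalized count is here a read count scaled to the mean library of 17578100 reads. Y-linked transcripts (Ddx3y above 100 reads) were present in 0 of 3 WT, 2 of 3 Kdm6bΔ/+, 1 of 3 Asxl1Y588XTg, and 3 of 3 Asxl1Y588XTg Kdm6bΔ/+ libraries, so this difference and the genotype cannot be told apart between WT and Asxl1Y588XTg Kdm6bΔ/+. All 8 LK progenitor markers were detected, with a summed level of 1161 to 1406 CPM, a read count divided by the effective library size. The 8 neutrophil markers summed to 52657 to 80454 CPM, and the megakaryocyte markers to 79.4 to 153 CPM in WT and 252 to 680 CPM in Asxl1Y588XTg. Replicate 1 of Asxl1Y588XTg stood apart from the other 11 libraries in the interferon-stimulated genes, and the results that use it are given with and without it.

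Type I interferons bind a receptor made of Ifnar1 and Ifnar2, whose kinases phosphorylate transcription factors including Stat2. Stat2 joins Irf9 in a complex that binds interferon-stimulated response elements (ISREs) in promoters. Interferon-γ acts on promoters with gamma-activated sites (GASs) and induces Irf1, the guanylate-binding proteins, and the immunity-related GTPases. In bone marrow, interferons are known to push quiescent stem cells into division and to alter their output of myeloid cells.

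RefSeq promoter windows (GRCm38.p6, 250 bases before to 50 after the start site) were matched to 33 of the 44 genes. The ISRE core GAAANNGAAA, read on both strands, was present in 19 of the 33 (57.6%), and in 3.99% of all 27025 genes with a window. The GAS motif TTCNNNGAA was present in 10 of the 33 (30.3%), and in 9.55% of all genes. The stretches below show how the motifs sit in promoters of genes described in the following paragraphs. Capitals mark ISRE core matches on either strand in the first 6, where overlapping matches run together, and the GAS match in the last. Positions are GRCm38.p6, and each stretch is written 5′ to 3′ on its gene's strand.
Isg15 (chr4:156200856-156200915, minus strand): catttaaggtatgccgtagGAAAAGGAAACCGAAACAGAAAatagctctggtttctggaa
Ifit1 (chr19:34640769-34640828, plus strand): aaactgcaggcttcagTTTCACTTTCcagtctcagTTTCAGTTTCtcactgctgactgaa
Oas1a (chr5:120907526-120907585, minus strand): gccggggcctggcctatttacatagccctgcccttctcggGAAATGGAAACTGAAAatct
Bst2 (chr8:71537565-71537624, minus strand): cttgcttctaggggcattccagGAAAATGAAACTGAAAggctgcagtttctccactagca
Ifit3 (chr19:34583365-34583424, plus strand): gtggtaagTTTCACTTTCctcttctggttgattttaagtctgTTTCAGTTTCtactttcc
Igtp (chr11:58199496-58199555, plus strand): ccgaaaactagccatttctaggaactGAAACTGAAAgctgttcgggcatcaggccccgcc
Irf1 (chr11:53769898-53769957, plus strand): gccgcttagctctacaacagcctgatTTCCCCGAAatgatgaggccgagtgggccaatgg
The Isg15 stretch, 38 to 97 bases before the start site, held 3 overlapping ISRE cores in 1 run, and those of Ifit1, Oas1a, Bst2, and Ifit3 held 2 each. The promoter windows of Oas1a, Bst2, and Igtp also held a GAS match, which for Oas1a lies outside the stretch shown, and the window of Irf1 held no ISRE core.

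Per kilobase of exon, the WT level was highest for Ifitm3, a membrane protein that blocks viral entry, with a mean of 2040 normalized counts per kb. Samd9l, a restriction factor, followed with 538, Bst2 (tetherin) with 377, and Dtx3l, a ubiquitin ligase, with 340. The lowest level was that of Mx2, at 0.896 normalized counts per kb. Over the 12 libraries Samd9l was at 2279 to 3484 normalized counts and Mx2 at 0 to 14.2.

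Asxl1Y588XTg replicate 1 had the highest level of all 12 libraries for 38 of the 43 genes tested (88.4%), whereas the same library was highest for 12.5% of all 15825 genes. It ranked 2 for Mx2, 3 for Stat2, 6 for Isg20 and Xaf1, and 12 for Ifit2. The median difference from the WT mean was 0.86 on the log2 CPM scale in this library, against 0.14 and 0.09 in Asxl1Y588XTg replicates 2 and 3 and −0.29 to 0.18 in the other 9 libraries. Its level was 1.5 times or more the mean of the other 2 Asxl1Y588XTg libraries for 30 of the 43 genes (69.8%, against 9.25% of all genes) and 2 times or more for 18 (41.9%, against 4.15%). The summed level of the 44 genes was 1863 CPM in this library and 947 to 1233 CPM in the other 11. The median ratio to the WT mean was 1.79 for replicate 1 and 1.07 for the mean of the other 2 Asxl1Y588XTg libraries, which exceeded WT for 28 of the 43 genes. At the other end, Asxl1Y588XTg Kdm6bΔ/+ replicate 1 was the lowest of 12 for 22 of the 43 genes (51.2%, against 6.02% of all genes). These counts describe single libraries, which have no replicate of their own.

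**Figure D1:**
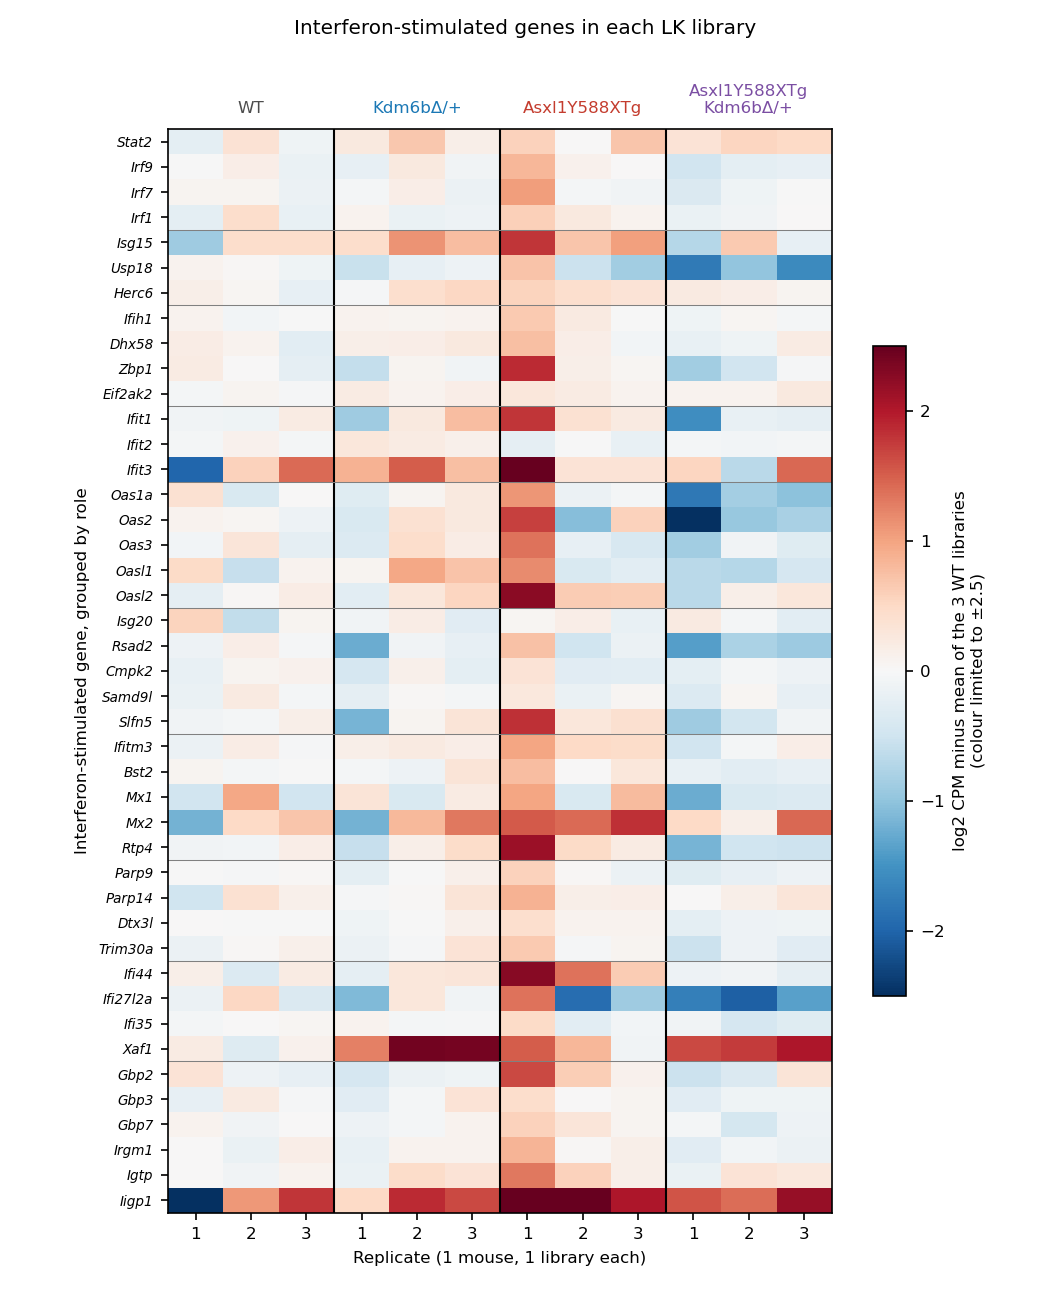
Each cell is the log2 CPM of 1 gene (rows, grouped by role) in 1 library (columns, 3 per genotype) minus the mean of the 3 WT libraries, with red for higher and blue for lower and the colour limited to ±2.5. The column of Asxl1Y588XTg replicate 1 lies above the WT mean for 42 of the 43 genes tested, with a median of 0.86, the exception being Ifit2.

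**Figure D2:**
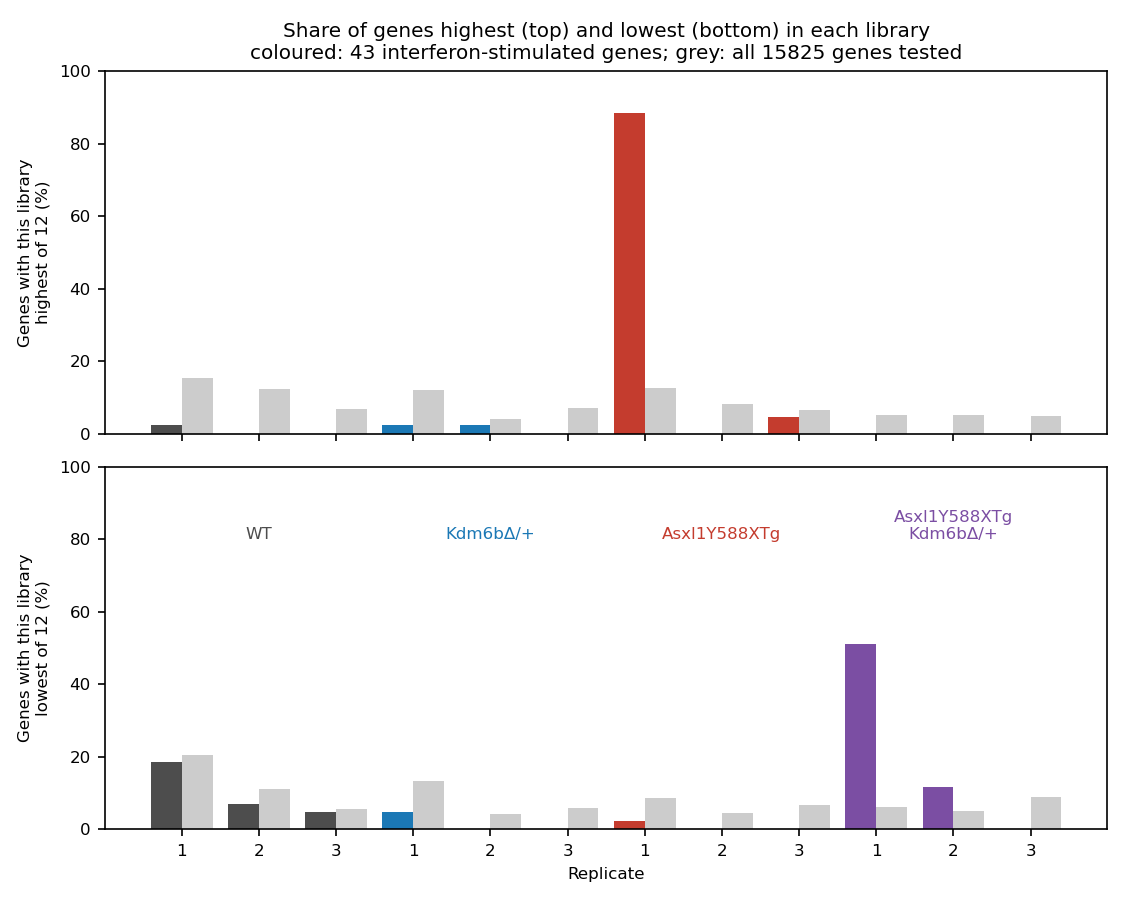
Bars give the percent of the 43 genes (coloured) and of all 15825 genes (grey) for which a library had the highest (top) or lowest (bottom) level of the 12. Asxl1Y588XTg replicate 1 reaches 88.4% in the top panel, and Asxl1Y588XTg Kdm6bΔ/+ replicate 1 reaches 51.2% in the bottom panel.

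Marker levels of Asxl1Y588XTg replicate 1 stood as follows. The summed markers of plasmacytoid dendritic cells, the main producers of type I interferon in blood and marrow, were at 134 CPM in this library, the highest of 12, and at 102 to 131 CPM in the other 11. Bcl11a, which LK progenitors also express, made up 87.5% of this sum over the 12 libraries and was at 1876 normalized counts in this library and 1521 to 2087 in the other 11. The remaining 7 markers, a subset taken after the values were seen, summed to 487 normalized counts in Asxl1Y588XTg replicate 1, 146 and 204 in replicates 2 and 3, and at most 351 in the other 11 libraries. Of the 8 markers, 5 were highest of 12 in replicate 1, among them Siglech, a surface receptor of these cells, at 58.3 against 0.915 to 52.4 in the other 11, and Spib, one of their transcription factors, at 204 against 49.6 to 156.8. Bcl11a, Ccr9, and Cox6a2 were not, with Ccr9 at 46.3 against 11.3 to 54.0 and Cox6a2 at 10.1 against 0 to 16.5. Its LK progenitor, neutrophil, monocyte and macrophage, B cell, T and NK cell, erythroid, and megakaryocyte sums all lay within the range of the other 11 libraries. Within its genotype, the B cell sum was 147 CPM in replicate 1 and 69.0 and 46.3 CPM in replicates 2 and 3. The T and NK cell sum was 233 against 196 and 194 CPM, and the monocyte and macrophage sum 1331 against 1135 and 1151 CPM. Its LK progenitor and neutrophil sums were also the highest of the genotype, and its erythroid and megakaryocyte sums lay between those of replicates 2 and 3. Asxl1Y588XTg replicate 1 had 17069253 counted reads and no Y-linked transcripts, like replicate 3 of its genotype. The part of the cells behind these markers, dendritic or other, in the result was not tested. In bulk samples, a change in the number of cells of a type and a change in RNA per cell cannot be told apart.

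Among the transcription factors, Irf7 amplifies the type I response and is itself interferon-induced. Irf7 (chromosome 7, 141262706 to 141266481, minus strand) had normalized counts of 285, 283 and 246 in WT, 260.1, 304 and 244 in Kdm6bΔ/+, 558, 263 and 256 in Asxl1Y588XTg, and 212, 252 and 268 in Asxl1Y588XTg Kdm6bΔ/+, in the order of replicates 1 to 3 that is used throughout. A single library was high, and the other 11 lay between 212 and 304. Irf9, the DNA-binding subunit of the complex with Stat2, was at 704, 801 and 634 in WT, 618, 843 and 669 in Kdm6bΔ/+, 1272, 768 and 714 in Asxl1Y588XTg, and 510.5, 599.9 and 615 in Asxl1Y588XTg Kdm6bΔ/+. Its Asxl1Y588XTg Kdm6bΔ/+ libraries lay below all WT and all Asxl1Y588XTg libraries. Irf1, an early target of interferon-γ, was at 775, 1238 and 804 in WT, 980.2, 812 and 844 in Kdm6bΔ/+, 1395, 1082 and 981 in Asxl1Y588XTg, and 816, 867 and 926 in Asxl1Y588XTg Kdm6bΔ/+. Stat2, the partner of Irf9, was at 318, 488 and 351 in WT, 449, 607 and 420.5 in Kdm6bΔ/+, 568, 380.4 and 611 in Asxl1Y588XTg, and 478, 555 and 534 in Asxl1Y588XTg Kdm6bΔ/+. Its highest library was Asxl1Y588XTg replicate 3 and its lowest WT replicate 1. Over the 4 factors, the level in Asxl1Y588XTg replicate 1 was 1.15 to 2.15 times the mean of the other 2 libraries of its genotype (median 1.53).

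The ISG15 system attaches the ubiquitin-like protein Isg15 to target proteins through Herc6, the ligase in mice, and removes it through Usp18, which also damps the interferon receptor. Isg15 (chromosome 4, 156199424 to 156200818, minus strand) was at 12.8, 35 and 35.3 in WT, 35.2, 57.5 and 44.6 in Kdm6bΔ/+, 92.5, 42.3 and 53.7 in Asxl1Y588XTg, and 14.8, 41 and 21.7 in Asxl1Y588XTg Kdm6bΔ/+. All 3 Asxl1Y588XTg libraries were above all 3 WT libraries. Usp18 was at 74.1, 71 and 64.2 in WT, 46.5, 60.5 and 63.3 in Kdm6bΔ/+, 115, 47.3 and 37.5 in Asxl1Y588XTg, and 19.2, 34 and 21.7 in Asxl1Y588XTg Kdm6bΔ/+. In Usp18 the 3 Asxl1Y588XTg Kdm6bΔ/+ libraries were the lowest of the 12, and Asxl1Y588XTg replicates 2 and 3 were below WT. Herc6 was at 177, 164 and 138 in WT, 155, 212 and 227 in Kdm6bΔ/+, 234, 212 and 202 in Asxl1Y588XTg, and 186, 179 and 166 in Asxl1Y588XTg Kdm6bΔ/+, with all Asxl1Y588XTg libraries above WT. Of its possible 50-base reads, 12.5% also occur in another annotated gene.

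The RNA sensors included Ifih1 (MDA5), Dhx58 (LGP2), Zbp1, and the kinase Eif2ak2 (PKR), and Asxl1Y588XTg replicate 1 was the highest library for all 4. Its ratio to the other 2 libraries ran from 1.10 for Eif2ak2 to 3.46 for Zbp1. Zbp1, a sensor of Z-form nucleic acid, was at 251 normalized counts in this library and at 36.1 to 78.7 in the other 11.

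The IFIT proteins bind foreign RNA ends. Ifit3 (chromosome 19, 34583531 to 34588731, plus strand) had few reads, with normalized counts of 0, 9.83 and 19.3 in WT, 12.6, 20.8 and 11.4 in Kdm6bΔ/+, 44.3, 8.05 and 8.1 in Asxl1Y588XTg, and 9.59, 3 and 19.6 in Asxl1Y588XTg Kdm6bΔ/+. Of its possible 50-base reads, 51.2% also occur in its near-copy Ifit3b, which was at 11.9, 6.55 and 6.42 in WT, 5.03, 3.97 and 7.27 in Kdm6bΔ/+, 22.1, 2.01 and 4.05 in Asxl1Y588XTg, and 3.69, 4 and 4.13 in Asxl1Y588XTg Kdm6bΔ/+. The division of reads between these genes is therefore uncertain, and WT replicate 1 had 0 reads for Ifit3 beside 13 for Ifit3b. Ifit2, on the same cluster of chromosome 19, was at 659, 732 and 661 in WT, 832, 786 and 741 in Kdm6bΔ/+, 587, 682 and 599 in Asxl1Y588XTg, and 664, 654 and 656 in Asxl1Y588XTg Kdm6bΔ/+. Its 3 Kdm6bΔ/+ libraries were the highest of the 12, and Asxl1Y588XTg replicate 1 was the lowest. Ifit1 was at 124 in Asxl1Y588XTg replicate 1 and at 10.3 to 60.2 in the other 11 libraries, so that Ifit1 and Ifit2, of the same gene cluster, stood at opposite ends of the ranking in the same library.

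The OAS family makes 2′-5′-linked oligoadenylates that activate RNase L, an activity that Oasl1 lacks. All 5 genes were highest in Asxl1Y588XTg replicate 1, with ratios to the other 2 libraries of 2.33 to 3.37 (median 3.09). Oasl2 (chromosome 5, 114896936 to 114912234, plus strand) was at 149, 177 and 198 in WT, 145, 211 and 251 in Kdm6bΔ/+, 833, 272 and 267 in Asxl1Y588XTg, and 108, 191 and 211 in Asxl1Y588XTg Kdm6bΔ/+. The other 2 Asxl1Y588XTg libraries also lay above the 3 WT libraries. Oas1a was at 263, 154 and 204 in WT, 163, 213 and 239.8 in Kdm6bΔ/+, 439.6, 182 and 194 in Asxl1Y588XTg, and 56.8, 112 and 98 in Asxl1Y588XTg Kdm6bΔ/+. All 3 Asxl1Y588XTg Kdm6bΔ/+ libraries were below the other 9, and 57.6% of the possible reads of Oas1a also occur in a paralog such as Oas1g. Oas3 was at 522, 677 and 472 in WT, 435, 745 and 624 in Kdm6bΔ/+, 1411, 475 and 419 in Asxl1Y588XTg, and 299, 516 and 446 in Asxl1Y588XTg Kdm6bΔ/+.

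Among other effectors of nucleic acid and nucleotide metabolism, Rsad2 (viperin) makes a chain-terminating nucleotide and Cmpk2, its neighbour on chromosome 12, is a nucleotide kinase. Rsad2 was at 208, 253 and 220.3 in WT, 94.2, 213 and 197 in Kdm6bΔ/+, 376, 160.0 and 204 in Asxl1Y588XTg, and 86.3, 130.0 and 119.7 in Asxl1Y588XTg Kdm6bΔ/+. In Asxl1Y588XTg Kdm6bΔ/+ all 3 libraries were below WT. Cmpk2 was at 968, 1155 and 1174 in WT, 821, 1194 and 923 in Kdm6bΔ/+, 1384, 898 and 914 in Asxl1Y588XTg, and 918, 1053 and 1003 in Asxl1Y588XTg Kdm6bΔ/+. Asxl1Y588XTg replicates 2 and 3 were below all 3 WT libraries and replicate 1 was above them. Slfn5, of the schlafen family, was at 124, 128 and 145 in WT, 57.8, 138 and 166 in Kdm6bΔ/+, 474, 161 and 175 in Asxl1Y588XTg, and 70.1, 95 and 125 in Asxl1Y588XTg Kdm6bΔ/+. The RNA exonuclease gene Isg20 was at 504, 224 and 359 in WT, 324, 392 and 283 in Kdm6bΔ/+, 354, 386 and 304 in Asxl1Y588XTg, and 403, 334 and 285 in Asxl1Y588XTg Kdm6bΔ/+, with its highest and lowest libraries both in WT.

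Among membrane and trafficking effectors, Ifitm3 (chromosome 7, 141009586 to 141010770, minus strand) was at 1249, 1558 and 1342 in WT, 1519, 1606 and 1541 in Kdm6bΔ/+, 2746, 1943 and 1886 in Asxl1Y588XTg, and 986, 1339 and 1543 in Asxl1Y588XTg Kdm6bΔ/+. The 3 Asxl1Y588XTg libraries were the highest 3 of the 12. Bst2, which tethers budding virions, was at 358, 327 and 336 in WT, 328, 312 and 423 in Kdm6bΔ/+, 581, 344 and 413 in Asxl1Y588XTg, and 299, 281 and 295 in Asxl1Y588XTg Kdm6bΔ/+. Rtp4, a chaperone of receptors that is strongly induced by type I interferon, was at 63.1, 63.4 and 74.9 in WT, 44, 74.4 and 92.4 in Kdm6bΔ/+, 299.8, 94.6 and 77 in Asxl1Y588XTg, and 28.8, 47 and 46.4 in Asxl1Y588XTg Kdm6bΔ/+. All 3 Asxl1Y588XTg libraries exceeded all 3 WT libraries, and all 3 Asxl1Y588XTg Kdm6bΔ/+ libraries were below WT. Mx1 and Mx2 had at most 20.8 normalized counts outside Asxl1Y588XTg, and Mx2, annotated as a polymorphic pseudogene, had 0 reads in WT replicate 1 and Kdm6bΔ/+ replicate 1. Parp14, a mono-ADP-ribosyltransferase, was at 521, 961 and 812 in WT, 729, 752 and 921 in Kdm6bΔ/+, 1351, 816 and 832 in Asxl1Y588XTg, and 744, 819 and 920.2 in Asxl1Y588XTg Kdm6bΔ/+.

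The interferon-γ-inducible GTPases disrupt the vacuoles of intracellular pathogens. Gbp2 (chromosome 3, 142620602 to 142638008, plus strand) was at 232, 169 and 158 in WT, 137, 167 and 171 in Kdm6bΔ/+, 581, 282 and 199.5 in Asxl1Y588XTg, and 126, 143 and 232 in Asxl1Y588XTg Kdm6bΔ/+. Igtp (Irgm3) was at 289, 271 and 308 in WT, 258, 396 and 366 in Kdm6bΔ/+, 719, 434 and 318 in Asxl1Y588XTg, and 257, 368 and 349 in Asxl1Y588XTg Kdm6bΔ/+, with all Asxl1Y588XTg libraries above WT. Iigp1 was at 0, 29.5 and 49.2 in WT, 18.8, 51.6 and 44.6 in Kdm6bΔ/+, 202, 98.6 and 57.7 in Asxl1Y588XTg, and 42, 37 and 65 in Asxl1Y588XTg Kdm6bΔ/+, with 0 reads in WT replicate 1. Asxl1Y588XTg replicate 1 was the highest library for all 6 GTPase genes tested, at 1.30 to 2.59 times the other 2 libraries of its genotype (median 1.80).

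**Figure D3:**
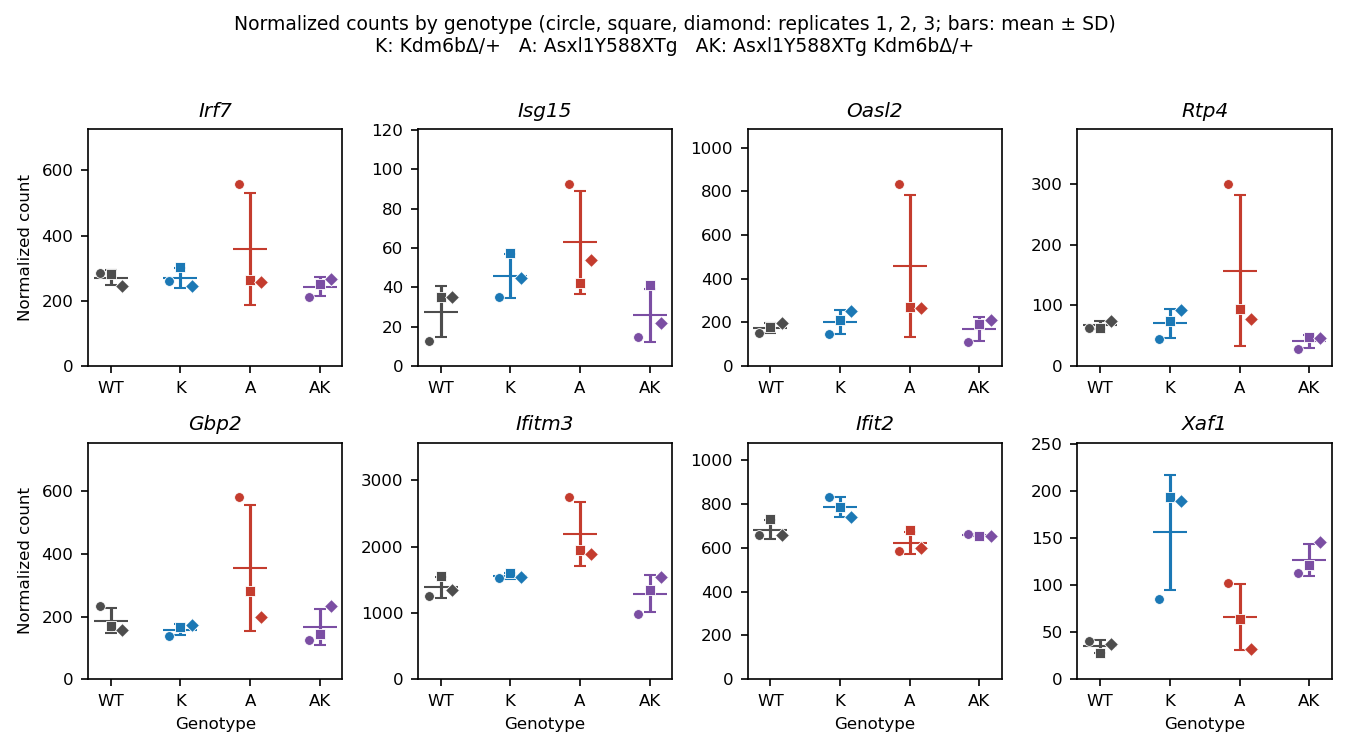
Normalized counts (y axes, from 0) of 8 interferon-stimulated genes by genotype (x axes; K, Kdm6bΔ/+; A, Asxl1Y588XTg; AK, Asxl1Y588XTg Kdm6bΔ/+). Points are single libraries and bars the mean ± SD of 3. In Irf7, Oasl2, Rtp4, and Gbp2 the circle of Asxl1Y588XTg replicate 1 lies far above the other 2 libraries, in Ifit2 it is the lowest point, and Xaf1 is highest in Kdm6bΔ/+.

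The comparison of Asxl1Y588XTg with WT asked how these genes differ between mice with and without the transgene for truncated ASXL1. Of the 43, 39 had a higher mean in Asxl1Y588XTg and 4 (Usp18, Ifit2, Isg20, and Cmpk2) a lower mean, where 47.8% of all genes were higher. A gene was called where its fold change exceeded 1.5 and its Benjamini-Hochberg adjusted p from the quasi-likelihood test of edgeR was below 0.05. None of the 43 was called, against 1.58% of all genes called up and 0.0316% down, and DESeq2 called 2 up (Ifi44 and Ifitm3; 2.88% of all genes called up). At an unadjusted p below 0.05, 11 of the 43 (25.6%) were higher and 0 lower, against 7.3% and 2.05% of all genes. The median log2 fold change was 0.39 (quartiles 0.20 and 0.91), against −0.01 over all genes tested.

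The smallest adjusted p was that of Ifitm3, at a log2 fold change of 0.66 (SE 0.15, edgeR adjusted p = 0.0802), where SE is the standard error. Igtp followed among the genes with values above, with 0.76 (SE 0.26, edgeR adjusted p = 0.338), then Oasl2 with 1.39 (SE 0.48, edgeR adjusted p = 0.398). For Isg15 the value was 1.19 (SE 0.47), for Rtp4 1.22 (SE 0.49), for Slfn5 1.03 (SE 0.40), and for Gbp2 0.92 (SE 0.38). Ifi44, a type I-induced protein that the naming rule did not take and that was chosen after its values were seen, had 37.5, 26.2 and 39.6 normalized counts in WT and 173, 90.6 and 53.7 in Asxl1Y588XTg, a log2 fold change of 1.61 (SE 0.43, edgeR adjusted p = 0.13). At the low end stood Ifit2 with −0.14 (SE 0.10), Isg20 with −0.064 (SE 0.26), and Cmpk2 with −0.047 (SE 0.17). The 3 libraries of Asxl1Y588XTg all lay above those of WT for 13 genes (30.2%, against 10.5% of all genes) and below them for 0 (5.21% of all genes). Mx2, 1 of the 13, reached 10 reads only in libraries with the Asxl1 transgene. Its place among the genes tested rests on those libraries, so its separation is not independent of the filter on low counts.

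Most of this difference lay in replicate 1. Without it, the median log2 fold change was 0.092, 28 of the 43 genes were higher and 15 lower, and an unadjusted p below 0.05 was reached by 3 higher genes (6.98%, against 5.53% of all genes in the same fit) and 2 lower genes (4.65%, against 1.54%). The 3 higher genes were Ifitm3 at 0.47 (SE 0.11, edgeR adjusted p = 0.141), Oasl2 at 0.63 (SE 0.20, edgeR adjusted p = 0.34), and Ifi44 at 1.06 (SE 0.40, edgeR adjusted p = 0.52). The lower genes were Cmpk2 at −0.28 (SE 0.12) and Ifi27l2a, another type I-induced gene chosen after its values were seen, at −1.46 (SE 0.55). Irf7 went from 0.40 to −0.066, Ifit3 from 1.06 to −0.24, and Usp18 from −0.072 to −0.72. Leaving out replicate 2 or 3 in place of replicate 1 gave 16 and 17 higher genes at an unadjusted p below 0.05 (6.13% and 6.66% of all genes), with none called without replicate 1, 2, or 3 (0.714%, 0.682%, and 0.998% of all genes called up). Leaving out WT replicate 1, 2, or 3 gave 5, 7, and 6 higher genes at that threshold (7.46%, 8.38%, and 7.38% of all genes). With a term for Y-linked transcripts, fitted to all 12 libraries, the median was 0.48, 20 genes were higher at an unadjusted p below 0.05 (8.54% of all genes), and Ifi44 was called, as were 2.08% of all genes.

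**Figure D4:**
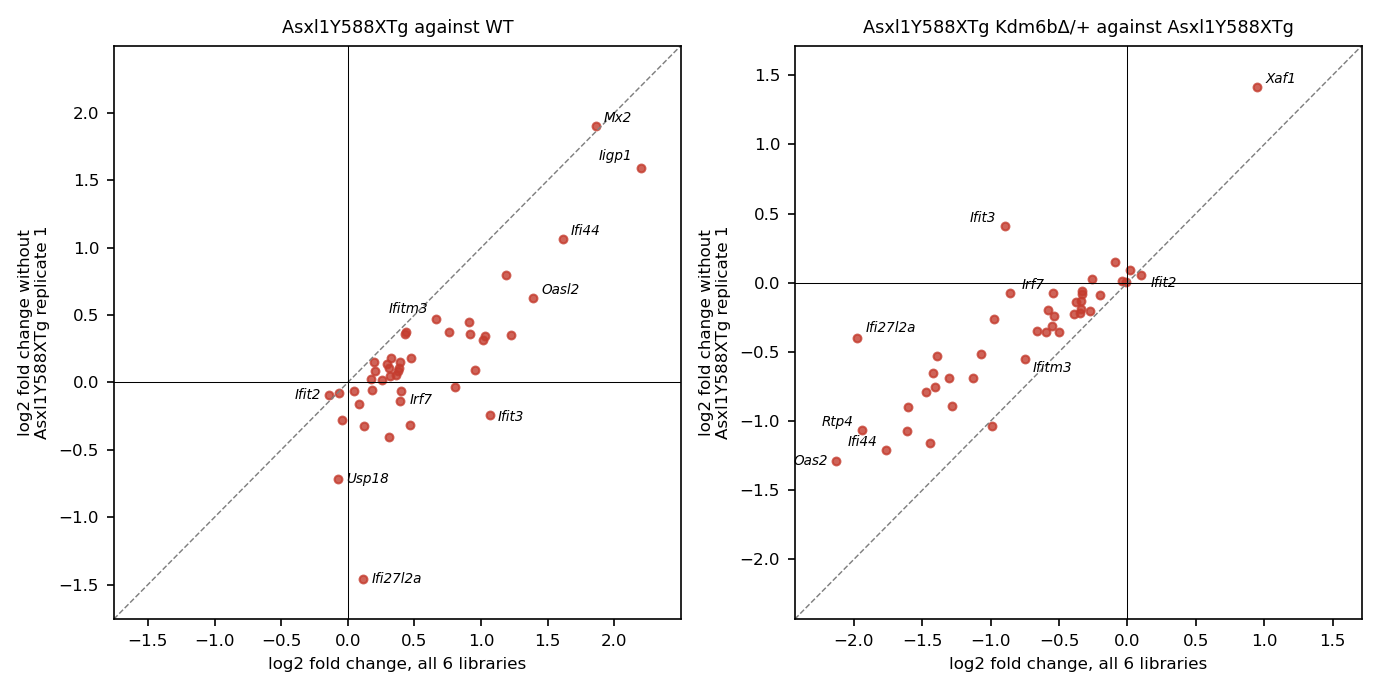
Log2 fold change of each of the 43 genes with all 6 libraries (x axis) and without Asxl1Y588XTg replicate 1 (y axis), for Asxl1Y588XTg against WT (left) and Asxl1Y588XTg Kdm6bΔ/+ against Asxl1Y588XTg (right). The dashed line marks equal values. Most points lie nearer 0 on the y axis than on the x axis, with the median going from 0.39 to 0.092 on the left and from −0.60 to −0.27 on the right.

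The comparison of Asxl1Y588XTg Kdm6bΔ/+ with Asxl1Y588XTg asked how these genes differ with loss of 1 Kdm6b allele in the presence of truncated ASXL1. Loss of the allele cannot be told apart here from exposure to pI:pC. Y-linked transcripts also differed, being present in all double mutant libraries but not in all Asxl1Y588XTg libraries. The comparison has a further limit. It shares the Asxl1Y588XTg libraries with the comparison above, so a high value in 1 of them moves the 2 comparisons in opposite directions. Of the 43 genes, 40 had a lower mean in the double mutant, against 50.8% of all genes, and the 3 higher were Stat2, Ifit2, and Xaf1. None was called by edgeR, against 1.59% of all genes called down and 0.145% up, and DESeq2 called 9 down (2.47% of all genes called down), among them Bst2, Ifitm3, Irf9, Oas1a, Rsad2, Rtp4, and Iigp1. At an unadjusted p below 0.05, 18 genes (41.9%) were lower, against 9.81% of all genes, and 1 (Xaf1) was higher, against 5.64%. The median log2 fold change was −0.60 (quartiles −1.35 and −0.34), against −0.0043 over all genes.

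For Isg15, Asxl1Y588XTg gave 92.5, 42.3 and 53.7 and Asxl1Y588XTg Kdm6bΔ/+ 14.8, 41 and 21.7 normalized counts, a log2 fold change of −1.28 (SE 0.42, edgeR adjusted p = 0.179). For Usp18 it was −1.41 (SE 0.45, edgeR adjusted p = 0.172), for Bst2 −0.60 (SE 0.18, edgeR adjusted p = 0.148), and for Oas1a −1.61 (SE 0.46, edgeR adjusted p = 0.183). Rtp4 gave −1.94 (SE 0.61), Slfn5 −1.48 (SE 0.53), Oasl2 −1.42 (SE 0.63), and Ifitm3 −0.75 (SE 0.23). The smallest adjusted p was that of Ifi44, with 31, 32 and 28.9 normalized counts in the double mutant and −1.77 (SE 0.40, edgeR adjusted p = 0.0636). All 3 double mutant libraries lay below all 3 Asxl1Y588XTg libraries for 21 genes (48.8%, against 14.1% of all genes) and above them for 1 (Xaf1; 7.11% of all genes).

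Without Asxl1Y588XTg replicate 1, the median was −0.27, 35 genes were lower and 8 higher, and 14 were lower at an unadjusted p below 0.05 (32.6%, against 7.94% of all genes in that fit). These 14 included Oas1a at −1.08 (SE 0.26, edgeR adjusted p = 0.0764), Rtp4 at −1.07 (SE 0.29, edgeR adjusted p = 0.103), Slfn5 at −0.79 (SE 0.24), Rsad2 at −0.69 (SE 0.21), Irf9 at −0.35 (SE 0.11), Bst2 at −0.36 (SE 0.12), Ifitm3 at −0.55 (SE 0.19), and Oasl2 at −0.66 (SE 0.27). In the same fit Xaf1 was called up, at 1.42 (SE 0.29, edgeR adjusted p = 0.0352), as were 0.354% of all genes. Bst2 was called down without replicate 2 (1% of all genes) and Ifi44 without replicate 3 (1.19% of all genes). Without Asxl1Y588XTg Kdm6bΔ/+ replicate 1, the lowest library for many of the genes, the median was −0.58, and 7 genes were lower at an unadjusted p below 0.05 (8.52% of all genes). With the term for Y-linked transcripts the median was −0.41, and 8 genes were lower at an unadjusted p below 0.05 (5.6% of all genes), with none called.

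In Kdm6bΔ/+ against WT, 1 of the 43 genes was called, Xaf1, which rose, against 0.0758% of all genes called up and 0.019% down. Xaf1 encodes an interferon-induced partner of the apoptosis inhibitor XIAP. Its normalized counts were 40.3, 27.3 and 37.4 in WT, 85.5, 193 and 189 in Kdm6bΔ/+, 103, 63.4 and 32.4 in Asxl1Y588XTg, and 113, 121 and 145 in Asxl1Y588XTg Kdm6bΔ/+. All Kdm6bΔ/+ and all double mutant libraries lay above all WT libraries, and Asxl1Y588XTg ranged from the WT level to above the lowest Kdm6bΔ/+ library. The log2 fold change was 2.15 (SE 0.34, edgeR adjusted p = 0.0431). It kept its direction but was called in only 1 of the 6 fits that left out 1 library (without Kdm6bΔ/+ replicate 1), with adjusted p from 0.0213 to 0.275 in those edgeR fits. The adjusted p was 0.0859 in 1 edgeR fit of all 4 genotypes and 0.293 with the term for Y-linked transcripts. Xaf1 lies on chromosome 11 at 72301629 to 72313733 (mm10), 2888 kb from Kdm6b at 69398508 to 69413675, the nearest of the 7 listed genes on that chromosome. The part of this position in the result was not tested.

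Of the 43 genes, 25 were higher in Kdm6bΔ/+ (49.2% of all genes), with a median log2 fold change of 0.068, against −0.0032 over all genes. No other gene reached an unadjusted p below 0.05, against 1.3% of all genes that were higher and 2.19% that were lower. With 1 library left out, at most 4 of the 43 reached it in either direction. The share of all genes in those fits is not given here, so nothing is read from that count. Among the genes with a mean of at least 100 normalized counts, the largest positive values were those of Stat2 at 0.35 (SE 0.19), Herc6 at 0.31 (SE 0.20), and Igtp at 0.23 (SE 0.17). The largest negative values were those of Rsad2 at −0.43 (SE 0.26), Gbp2 at −0.24 (SE 0.21), and Cmpk2 at −0.16 (SE 0.14). Groups did not overlap for 3 genes that were higher (Xaf1, Ifit2, and Eif2ak2; 6.98%, against 4.13% of all genes) and 1 that was lower (Usp18; 2.33%, against 4.8%). With the term for Y-linked transcripts, 38 of the 43 genes were higher, with a median log2 fold change of 0.25, against −0.0053 over all genes. In that fit, 4 genes were higher at an unadjusted p below 0.05 (1.01% of all genes) and 0 lower (1.76%).

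In Asxl1Y588XTg Kdm6bΔ/+ against WT, Xaf1 was again the 1 gene called, with 1.86 (SE 0.26, edgeR adjusted p = 0.0183), against 0.145% of all genes called up and 0.0695% down. It was called in 2 of the 6 fits without 1 library (without WT replicate 1 or 2), with edgeR adjusted p from 0.0146 to 0.141, and not in the fit of all 4 genotypes (edgeR adjusted p = 0.118) or with the term for Y-linked transcripts (edgeR adjusted p = 0.939). DESeq2 called Xaf1 up (0.468% of all genes called up) and 4 genes down (Ifi27l2a, Oas1a, Rsad2, and Usp18; 0.253% of all genes called down). The WT libraries are shared with the previous comparison. Of the 43 genes, 34 were lower (50.1% of all genes), and 8 were lower at an unadjusted p below 0.05 (18.6%, against 3.06% of all genes). Rsad2 gave −1.01 (SE 0.20, edgeR adjusted p = 0.131), Usp18 −1.48 (SE 0.33, edgeR adjusted p = 0.236), and Oas1a −1.22 (SE 0.28, edgeR adjusted p = 0.248). Ifi27l2a, chosen after its values were seen, was at 38.4, 62.3 and 33.2 in WT and 11.8, 9 and 15.5 in the double mutant, with −1.86 (SE 0.44, edgeR adjusted p = 0.255). Stat2, at 0.45 (SE 0.16), was the other higher gene at an unadjusted p below 0.05 (3.73% of all genes). Without Asxl1Y588XTg Kdm6bΔ/+ replicate 1, 5 genes were lower at that threshold (2.7% of all genes). The groups did not overlap for 12 lower genes (27.9%, against 6.87% of all genes), among them Irf9 at −0.30 (SE 0.12), Rtp4 at −0.71 (SE 0.30), and Bst2 at −0.21 (SE 0.12), and for 2 higher genes (Xaf1 and Eif2ak2; 4.65%, against 6.68%). The median log2 fold change was −0.16, and 0.07 with the term for Y-linked transcripts, which here were absent from all WT libraries and present in all double mutant libraries. With that term, 26 of the 43 genes were higher. At an unadjusted p below 0.05, 0 genes were then lower (2.12% of all genes) and 2 higher (2.53%).

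In Asxl1Y588XTg Kdm6bΔ/+ against Kdm6bΔ/+, which both carried the Kdm6b deletion, 36 of the 43 genes were lower (49.7% of all genes) and edgeR called none, against 0.0379% of all genes called down and 0.0569% up, and DESeq2 called 3 down (Oas1a, Oas2, and Oasl1; 0.107% of all genes called down). Of the 43, 10 were lower at an unadjusted p below 0.05 (23.3%, against 5.67% of all genes) and 0 higher (6.54%). Oas1a gave −1.22 (SE 0.24, edgeR adjusted p = 0.103) and Usp18 −1.20 (SE 0.31, edgeR adjusted p = 0.178). Oasl1, chosen after its values were seen, was at 77.9, 146 and 123 in Kdm6bΔ/+ and 45.7, 44 and 54.7 in the double mutant, with −1.27 (SE 0.25, edgeR adjusted p = 0.0951). The values of Rsad2 at −0.60 (SE 0.29) and Oas3 at −0.52 (SE 0.26) were negative and those of Stat2 at 0.086 (SE 0.13), Gbp2 at 0.071 (SE 0.22), and Parp14 at 0.048 (SE 0.11) positive, and none of these 5 passed the unadjusted threshold. The median log2 fold change was −0.26, and −0.14 without Asxl1Y588XTg Kdm6bΔ/+ replicate 1. With the term for Y-linked transcripts the median was −0.16. In that fit, 4 genes were lower at an unadjusted p below 0.05 (4.33% of all genes) and 0 higher (4.14%). Without Kdm6bΔ/+ replicate 1, 21 genes were lower at an unadjusted p below 0.05 (4.42% of all genes in that fit) and 1 was called down (Oasl1; 0.0316% of all genes). The groups did not overlap for 10 lower genes (23.3%, against 9.57% of all genes) and for 0 higher genes (9.32% of all genes).

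The interaction over all 12 libraries tested whether the difference between mice with and without the Kdm6b deletion depended on the Asxl1 transgene. No gene of the 43 was called by edgeR, against 0.0126% of all genes called negative and 0 called positive, and DESeq2 called 1 negative (Ifitm3; 0.385% of all genes called negative). Of the 43 interaction terms, 41 were negative (52.8% of all genes), 19 of them at an unadjusted p below 0.05 (44.2%, against 4.72%), while 0 were positive at that threshold (2.15% of all genes), and the median was −0.72 on the log2 scale. The smallest adjusted p was that of Ifitm3, at −0.94 (SE 0.24, edgeR adjusted p = 0.332). Isg15 gave −2.03 (SE 0.65), Oas1a −1.61 (SE 0.50), Rtp4 −2.03 (SE 0.64), and Bst2 −0.67 (SE 0.24). Without Asxl1Y588XTg replicate 1 the median was −0.35, 41 terms were negative, and 9 were so at an unadjusted p below 0.05 (20.9%, against 3.89% of all genes in that fit), Ifitm3 being at −0.74 (SE 0.19, edgeR adjusted p = 0.405). The number of negative terms at that threshold was 8 without Kdm6bΔ/+ replicate 3 (3.45% of all genes) and 11 without Asxl1Y588XTg Kdm6bΔ/+ replicate 1 (3.78%).

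Other genes of the pathway were taken from lists of 126 genes, of which 123 were in the matrix and 107 were tested. The 9 receptor and kinase genes gave median log2 fold changes between −0.051 and 0.0003 in the 5 pairwise comparisons. None was called, where 0.0948% to 1.74% of all genes were called in either direction. Ifnar1 gave 0.0026 (SE 0.11) in Asxl1Y588XTg against WT, Ifnar2 0.032 (SE 0.10), and Ifngr1, a chain of the interferon-γ receptor, −0.061 (SE 0.07). None of the 10 interferon genes listed was high enough to test, 8 of them having 0 reads in all libraries and Ifng and Ifnk 21 reads each over all 12.

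Of the 107 genes, 2 rose in Asxl1Y588XTg against WT (1.87%, against 1.58% of all genes). Socs3, an inhibitor of JAK-STAT signalling that many cytokines induce, was at 353, 228 and 271 in WT, 269, 155 and 215 in Kdm6bΔ/+, 1036, 732 and 757 in Asxl1Y588XTg, and 269, 216 and 273 in Asxl1Y588XTg Kdm6bΔ/+. It rose with a log2 fold change of 1.56 (SE 0.19, edgeR adjusted p = 0.00489) and fell in the double mutant against Asxl1Y588XTg, at −1.72 (SE 0.16, edgeR adjusted p = 0.00248). Without Asxl1Y588XTg replicate 1 these were 1.39 (SE 0.18, edgeR adjusted p = 0.0152) and −1.54 (SE 0.12, edgeR adjusted p = 0.000107). Ifitm1, a relative of Ifitm3, was at 166, 227 and 278 in WT and 641, 555 and 495 in Asxl1Y588XTg, and rose with a log2 fold change of 1.33 (SE 0.19, edgeR adjusted p = 0.0083), or 1.23 (SE 0.21, edgeR adjusted p = 0.0355) without replicate 1. In the double mutant against Asxl1Y588XTg, 4 of the 107 genes fell (3.74%, against 1.59% of all genes), which were Socs3, Cd274 (PD-L1) at −1.04 (SE 0.21, edgeR adjusted p = 0.0363), the death ligand Tnfsf10 (TRAIL) at −0.89 (SE 0.18, edgeR adjusted p = 0.0487), and Uba7, the enzyme that activates Isg15, at −0.66 (SE 0.12, edgeR adjusted p = 0.0311). Without replicate 1 of Asxl1Y588XTg, Tnfsf10 was still called, at −0.69 (SE 0.15, edgeR adjusted p = 0.0397), whereas Cd274, at −0.81 (SE 0.20, edgeR adjusted p = 0.07), missed the adjusted p and Uba7, at −0.53 (SE 0.10, edgeR adjusted p = 0.0214), the fold change. In the double mutant against Kdm6bΔ/+, 1 of the 107 genes was called, Ifi27 (0.935%, against 0.0379% of all genes called down). It fell with −1.01 (SE 0.16, edgeR adjusted p = 0.0426). No gene of the lists was called against WT in Kdm6bΔ/+ (0.0758% of all genes called up and 0.019% down) or in the double mutant (0.145% up and 0.0695% down). The stem cell antigen gene Ly6a, which interferons induce, was at 22.9, 75.4 and 67.4 in WT, 86.7, 112 and 104 in Kdm6bΔ/+, 442, 274 and 180.3 in Asxl1Y588XTg, and 93.7, 94 and 99 in Asxl1Y588XTg Kdm6bΔ/+. All 3 Asxl1Y588XTg libraries exceeded the other 9, with 2.44 (SE 0.48, edgeR adjusted p = 0.054) against WT, or 2.05 (SE 0.43, edgeR adjusted p = 0.0914) without replicate 1. Ly6a encodes the surface marker Sca1. In mice analysed when moribund, the study found a larger share of Lin−Sca1+cKit+ marrow cells with the Asxl1 transgene, lowered by the Kdm6b deletion. The part of cell composition in the Ly6a values was not tested.

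Members of the list moved together between libraries of the same genotype. After the genotype mean of log2 CPM was subtracted, the median Pearson r over the 903 pairs of the 43 genes was 0.57 across the 12 libraries (quartiles 0.32 and 0.76), against 0.001 over all pairs of genes tested. Across the 9 libraries of the other 3 genotypes it was 0.31, so the co-variation was not limited to the Asxl1Y588XTg libraries. Rtp4 (median r with the others 0.79), Zbp1 (0.78), and Parp9 (0.78), named by this value after it was seen, followed the group most closely, whereas Ifit2 (−0.36) and Isg20 (−0.13) ran against it. These points share their libraries and depth and carry no test. Among the genes with a promoter window, the 18 tested genes with an ISRE core had a median ratio of Asxl1Y588XTg replicate 1 to the other 2 libraries of 1.80 and the 14 without one 1.55, and the medians were 1.39 for the 10 with and 2 for the 22 without a GAS match.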

How the data were processed

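Reads of 50 bases were trimmed, aligned to the mouse genome (mm10), and counted per gene by the authors with Trimmomatic 0.38, STAR 2.7.0e, and HTSeq 0.11.2. The deposited values are these raw counts, without normalization. The sample labels name an NEB kit and a NextSeq, and the methods a KAPA stranded kit and a HiSeq. The annotation and the strand setting are not given in the sources used here, so reads on overlapping antisense genes such as Parp9 and Dtx3l cannot be told apart.

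Genes were filtered with filterByExpr over the 4 genotypes, scaled by TMM, and tested with edgeR 4.0.16 (quasi-likelihood, robust) in R 4.3.3 on the 6 libraries of each comparison, or on all 12 for the interaction, with Benjamini-Hochberg adjustment over 15825 genes. A gene was called at an adjusted p below 0.05 and a fold change above 1.5. Log2 CPM used a prior count of 2. Each library came from 1 mouse, so p-values reflect the spread between 3 mice per genotype. Alternatives were DESeq2 1.42.0, RLE scaling, no expression filter, a mean count of at least 50, all 4 genotypes in 1 fit, the replicate number as a block, a term for Y-linked transcripts, and each library left out. In data simulated for Asxl1Y588XTg against WT over 15463 genes, edgeR called 85% of genes changed 2-fold and 99% of those changed 4-fold. The changed genes averaged more than 50 reads and were shifted equally in all 3 Asxl1Y588XTg libraries. These shares therefore do not apply to genes with few reads or with 1 high library.

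The genes, lists, and motifs were chosen with earlier results of these data known. Values in every library are given for called genes, for the 3 largest and 3 smallest log2 fold changes of each pairwise comparison among genes averaging 100 normalized counts or more, and for 15 fixed representatives of the roles. From the pathway lists, the rule took at most 3 called genes per direction, with Ifnar1, Ifnar2, Ifngr1, and Ly6a. Uba7, called down in the double mutant against Asxl1Y588XTg, was named in addition. One further gene fixed by the rule is not reported here. Positions and shared 50-base sequences were taken from GENCODE vM21 (44 of 44 matched by symbol). Promoters were RefSeq windows, with 11 genes not in the table.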

Additional observations from a re-analysis of the deposited data

How the results depend on the processing

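Counts of called genes were low and moved with the processing. In the order Asxl1Y588XTg against WT, Asxl1Y588XTg Kdm6bΔ/+ against Asxl1Y588XTg, Kdm6bΔ/+ against WT, Asxl1Y588XTg Kdm6bΔ/+ against WT, Asxl1Y588XTg Kdm6bΔ/+ against Kdm6bΔ/+, and the interaction, the main fits called 0, 0, 1, 1, 0, and 0 of the 43 genes. DESeq2 called 2, 9, 1, 5, 3, and 1, with 2.98%, 2.82%, 0.246%, 0.72%, 0.657%, and 0.417% of all genes called in either direction. Without an expression filter, edgeR called 6, 10, 1, 6, 5, and 14, with 2.05%, 2.62%, 0.18%, 0.601%, 0.691%, and 0.789% of all genes called. One fit of all 4 genotypes called 1, 2, 0, 0, and 0 in the pairwise comparisons, with 2.82%, 1.02%, 0.0442%, 0.0885%, and 0.019% of all genes called. The term for Y-linked transcripts gave 1, 0, 0, 0, 0, and 0, with 2.13%, 0.303%, 0.0379%, 0.019%, 0.0126%, and 0% of all genes called. RLE scaling (0.0126% to 1.69% of all genes called) and a mean count of at least 50 (0% to 1.35%) left every count as in the main fits. Replicate numbers did not pair the libraries, same-numbered libraries correlating at −0.12 to 0.08 (median −0.04, 18 pairs) in their deviations from the genotype means. The replicate block gave 0, 0, 0, 2, 1, and 0, with 0.638%, 0.449%, 0.139%, 0.417%, 0.12%, and 0.0126% of all genes called.

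With 1 library left out, the counts ranged over 0 to 0, 0 to 1, 0 to 1, 0 to 1, 0 to 1, and 0 to 0. The shares of all genes called in these fits ranged over 0.695% to 1.59%, 0.354% to 1.73%, 0.0442% to 0.164%, 0.0885% to 0.316%, 0.0316% to 0.215%, and 0% to 0.0632%. The median log2 fold changes ranged over 0.092 to 0.58, −0.81 to −0.27, −0.01 to 0.14, −0.22 to −0.10, −0.32 to −0.14, and −0.94 to −0.35, and the values nearest 0 in the first, second, and last came without Asxl1Y588XTg replicate 1. The other alternatives moved no median by more than the SD between replicates (0.24), although that of the double mutant against WT changed sign with the term for Y-linked transcripts.

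Some single genes changed sign. With the term for Y-linked transcripts, Cmpk2 was at 0.081 and Usp18 at 0.041 in Asxl1Y588XTg against WT, Ifit3 at 0.049 in the double mutant against Asxl1Y588XTg, Rsad2 at 0.015 and Cmpk2 at 0.089 in Kdm6bΔ/+ against WT, and Slfn5 at 0.20 in the double mutant against WT. With 1 library left out, Isg20 ranged over −0.31 to 0.25, Cmpk2 over −0.28 to 0.067, Irf7 over −0.066 to 0.60, Ifit3 over −0.24 to 2.06, and Usp18 over −0.72 to 0.22 in Asxl1Y588XTg against WT. Ifit3 ranged over −1.58 to 0.41 and Stat2 over −0.16 to 0.16 in the double mutant against Asxl1Y588XTg, and Gbp2 over −0.24 to 0.25, Parp14 over −0.037 to 0.16, and Stat2 over −0.017 to 0.27 in the double mutant against Kdm6bΔ/+. The causes were not tested. Mx1, Mx2, Ifit3, and Ifit3b had too few reads for their differences to be measured well at this depth.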
